A study of Homo sapiens with 4 samples.

Results

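The genes described here are 7 mRNAs known from published work as substrates of IRE1-dependent decay: BLOC1S1, PMP22, COL6A1, SPARC, PDGFRB, HGSNAT and SCARA3. They were taken by gene symbol, by a rule that sets no threshold on these data although earlier results of the data were known, and all 7 were among the 25192 genes of the deposited tables. Of these, 6 were among the 14099 genes that passed edgeR's filter on low counts, and PDGFRB was not. The libraries came from A549, a human lung adenocarcinoma cell line, 48 h after infection. In 2 libraries the cells had received the control empty virus (EV), a retrovirus that carries GFP alone, and in 2 libraries the FCN3 virus, in which the same vector also carries the full coding sequence of FCN3, a secreted lectin of the complement system, with a V5 tag. The libraries are numbered 1 and 2 in both groups. Neither what a number marks nor whether the libraries came from separate cultures is stated in the labels, so that p-values measure only the spread between these libraries, which may be technical.

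IRE1, encoded by ERN1, is a sensor of unfolded proteins in the membrane of the endoplasmic reticulum (ER), and its cytosolic side holds a kinase and an RNase. The RNase cuts XBP1 mRNA at a pair of stem-loops, and rejoining of the exons gives the message for an active transcription factor. It also cuts other mRNAs at the ER, whose fragments are then degraded by the exosome and by XRN1, a process called regulated IRE1-dependent decay (RIDD). Cut sites are often a loop of 7 bases that resembles those of XBP1, held by a short stem, and BLOC1S1 is widely used as a reporter of the process.

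To show what such a site looks like in these genes, the sense strand of 1 GENCODE transcript per gene (GRCh37) was searched for the loop CNGCAGN, and the base pairs that the flanking bases could form were counted outward from the loop, with G-U pairs allowed. Below, capitals mark the loop and lower case the stem. The first 2 are those of XBP1, which show the reference form, in exon 4 on the minus strand at chr22:29192131-29192149 and chr22:29192104-29192124. The others are the longest stem of each member that had at least 4 pairs, all in coding sequence.
XBP1 first loop: ctgagtCCGCAGCactcag
XBP1 second loop: tgcacctCTGCAGCaggtgca
BLOC1S1: gggcagCTGCAGTctgccc
PDGFRB: ctgcgtCTGCAGCacgtgg
PMP22: atggCTGCAGTctgt
COL6A1: gggcCAGCAGCgccc
The XBP1 stems have 6 and 7 pairs. The BLOC1S1 stem, in exon 4 at chr12:56113367-56113385 on the plus strand, has 6 pairs without a G-U pair. That of PDGFRB, in exon 10 at chr5:149509398-149509416 on the minus strand, also has 6 pairs, of which 2 are G-U. PMP22 (exon 4, chr17:15142913-15142927, minus strand) has 4 pairs, 2 of them G-U, and COL6A1 (exon 35, chr21:47423483-47423497, plus strand) has 4 pairs around a loop that lacks the hexamer CTGCAG. The longest stem was 3 pairs in HGSNAT, 2 in SCARA3 and 1 in SPARC. The letters alone are common. The hexamer CTGCAG was in 7 of 7 members and in 82.2% of 19553 protein-coding transcripts, and the loop in 94.8% of them. A stem of at least 4 pairs was present in 4 of 7 members against 13.1% of all transcripts, and one of at least 6 pairs in 2 of 7 against 2.18%. The members were listed as published substrates, so these shares are no independent evidence of cutting. Their median transcript length was 3787 bases, against 2902 for all transcripts. A match of letters is a description and not a measured cut.

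Expected counts summed to between 16353554 and 35733735 per library, replicate 1 being the deeper library in both groups, and a floor of 3 counts corresponds to between 0.0823 and 0.179 counts per 1000000 (CPM, TMM-normalized). FCN3 had an expected count of 1 and 0 in the EV libraries and 722388 and 448352 in the FCN3 virus libraries. The cells carried epithelial markers, with KRT8 between 1982 and 2789 transcripts per 1000000 (TPM), although EPCAM was between 1.09 and 3.65 TPM. The endothelial markers PECAM1 and CDH5 and the leukocyte marker PTPRC were at or below 0.07 TPM. Of the 7 fibroblast markers, DCN was at 0, COL1A2 and LUM were at or below 0.06 TPM, and the list summed to 14.6 and 20.2 TPM in EV and 9.49 and 14.3 TPM in FCN3 virus libraries. Most of these sums came from THY1 (10.9 and 11.5 TPM in EV) and COL1A1 (3.39 and 8.12 TPM in EV). All libraries came from A549 cells, and in bulk RNA a change in some cells and a change in every cell cannot be told apart.

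Levels of different members can be compared in TPM, which is scaled per length. In EV libraries the mean was 147 ± 11.7 TPM for BLOC1S1, 125 ± 13.7 for PMP22, 46.2 ± 0.0707 for SCARA3, 27.7 ± 3.13 for COL6A1, 22.5 ± 2.01 for HGSNAT, 11.1 ± 6.32 for SPARC and 0.065 ± 0.0212 for PDGFRB (SD, n = 2 each). Neighbours in this order did not overlap in their EV libraries, but the gaps between BLOC1S1 and PMP22 and between COL6A1 and HGSNAT were smaller than the spread between replicates of either gene. SCARA3 stood apart from both of its neighbours, and PDGFRB was near the limit of detection. With the FCN3 virus the means were 96.9 ± 22.3 TPM for BLOC1S1, 71.8 ± 11.4 for PMP22, 37.3 ± 0.0495 for SCARA3, 19.8 ± 1.77 for COL6A1, 18.3 ± 0.785 for HGSNAT, 12.7 ± 8.59 for SPARC and 0.145 ± 0.0636 for PDGFRB (SD, n = 2 each). The means had the same order as in EV, with overlap between COL6A1 and HGSNAT and between HGSNAT and SPARC. FCN3 itself took 41618 and 44730 TPM in the FCN3 virus libraries, which lowers the TPM of all other genes there, also in the marker sums above. The median log2 fold change of all tested genes was -0.072 by limma on log2 TPM (pseudocount 1), against 0.016 by edgeR on TMM-normalized counts. TPM differences between groups are thus slightly too low.

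**Figure D1:**
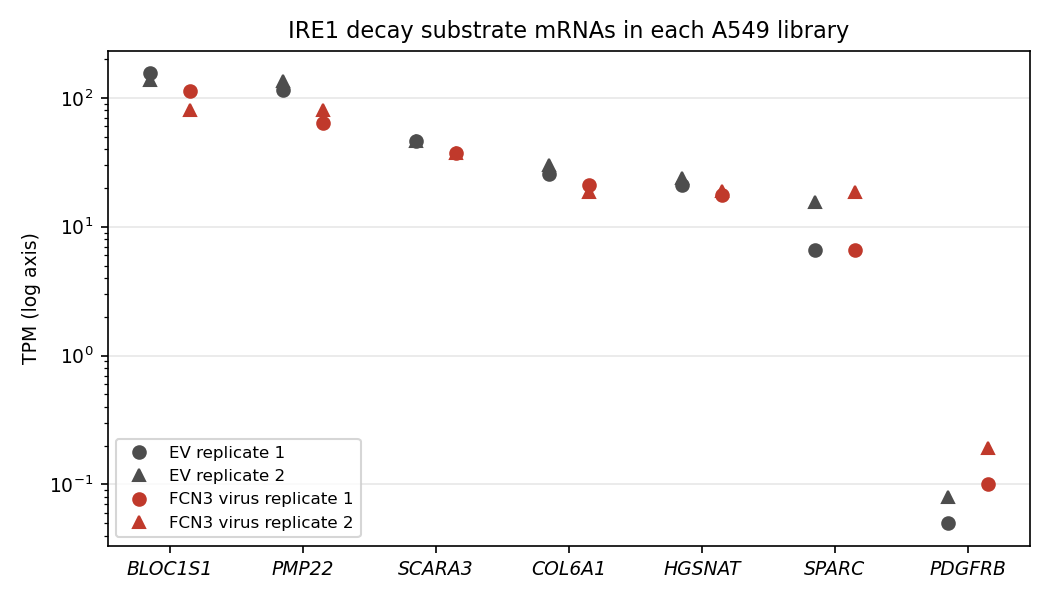
TPM of each of the 7 members (log axis) in the 2 EV libraries (grey) and the 2 FCN3 virus libraries (red), with circles for replicate 1 and triangles for replicate 2. In 5 members both red points lie below both grey points, whereas the points of SPARC separate by replicate number and those of PDGFRB are all below 0.2 TPM. The share of TPM taken by FCN3 itself lowers all red points slightly.

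The comparison of EV with FCN3 virus asked whether these mRNAs were lower in cells with the FCN3 virus. At a false discovery rate (FDR) of 0.01, edgeR's quasi-likelihood test called 0 of the 6 tested members, against 0.965% of all tested genes (0.227% called lower and 0.738% higher). At an unadjusted p under 0.05 it called 4, all lower, against 11.6% of tested genes called lower at that level. Both FCN3 virus libraries were below both EV libraries in 5 of the 6, against 26.5% of tested genes, SPARC being the exception. The fitted log2 fold change was below 0 in the same 5 members, against 48.1% of tested genes. The member median was -0.30 and that of all tested genes 0.016. The replicate number was then added to the model as a block. The SEs and p-values of this fit rest mostly on variation pooled over genes, not on a gene's own same-numbered libraries. In it 4 members were called lower (PMP22, BLOC1S1, COL6A1 and SCARA3) and none higher. Of all tested genes, 17.1% were called lower, 19.1% higher and 36.2% in either direction. At an FDR of 0.05 and without the block edgeR called 1 member, PMP22, against 2.77% of tested genes called lower at that level. DESeq2 without the block called 1 member, PMP22, against 3.47% of its genes called lower. With the block DESeq2 called 2 members, PMP22 and BLOC1S1, both lower, against 7.91%.

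**Figure D2:**
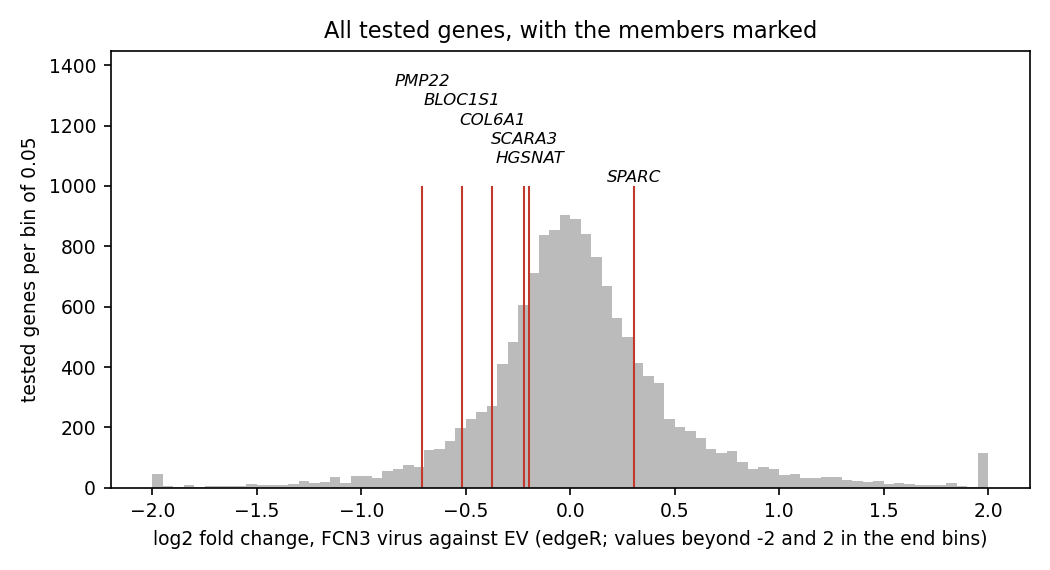
Histogram of the edgeR log2 fold change (FCN3 virus against EV) of the 14099 tested genes in bins of 0.05, with values beyond -2 and 2 in the end bins and a red line for each of the 6 tested members. PMP22, BLOC1S1, COL6A1, SCARA3 and HGSNAT lie to the left of 0, between -0.71 and -0.20, and SPARC at 0.30.

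PMP22, a membrane protein best known from the myelin of peripheral nerve, is made at the ER and lies on chromosome 17 (GRCh37, 15133090 to 15175609, minus strand). It was at 99.6 and 119 CPM in EV replicates 1 and 2 and at 59.7 and 73.8 CPM in FCN3 virus replicates 1 and 2. Both FCN3 virus libraries were low, and the difference was nearly the same in both numbers: -0.74 on the log2 scale between the libraries numbered 1 and -0.68 between those numbered 2. The fitted log2 fold change was -0.71 (SE 0.14, 95% interval -1.07 to -0.35, edgeR adjusted p = 0.0495), or 0.612-fold. Of the 6 tested members it had the largest difference, and 4.30% of tested genes had a lower value. With the replicate block it was -0.71 with an SE of 0.06 (edgeR adjusted p = 3.36e-15), and PMP22 fell by that measure. DESeq2 without the block also called it (adjusted p = 0.000351). PMP22 itself differed between replicate numbers, by 0.28 on the log2 scale and higher in replicate 2 in both groups (edgeR adjusted p = 0.000154), as 22.2% of tested genes did in one direction or the other.

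The relatives of PMP22 in its tetraspan family did not share 1 direction. EMP1 was at 9.75 and 11.2 TPM in EV and at 17.8 TPM in both FCN3 virus libraries (log2 fold change 0.88, SE 0.13, edgeR adjusted p = 0.0216). EMP3 was higher by 0.37 (adjusted p = 0.0645) and EMP2 had a log2 fold change of -0.79 (adjusted p = 0.113). Without the block edgeR called none of the 3 and DESeq2 called EMP1 (adjusted p = 0.000161). In the edgeR fit with the block, EMP1 and EMP3 rose and EMP2 fell, against 19.1% of all tested genes called higher and 17.1% lower. LIM2, the lens member, was listed at 0 in the 4 libraries.

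BLOC1S1 encodes a subunit shared by BLOC-1, a complex that sorts cargo to lysosome-related organelles, and BORC, which positions lysosomes. The gene lies on chromosome 12 (GRCh37, 56109822 to 56113871, plus strand). It was at 37.8 and 33.5 CPM in EV replicates 1 and 2 and at 29.0 and 20.5 CPM in FCN3 virus replicates 1 and 2. The groups did not overlap, but the gap between the FCN3 virus libraries was wide, and the difference was -0.38 between libraries numbered 1 and -0.71 between those numbered 2. The log2 fold change was -0.52 (SE 0.19, 95% interval -0.99 to -0.05, edgeR adjusted p = 0.164). With the replicate block it was -0.53 (SE 0.08, adjusted p = 2.54e-07). BLOC1S1 was lower in replicate 2 than in replicate 1 by -0.33 on the log2 scale over both groups (adjusted p = 0.00117), the opposite of PMP22.

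Reads of BLOC1S1 are shared in part with the read-through gene BLOC1S1-RDH5, whose expected counts were 58.8 and 35.7 in EV and 18.4 and 17.9 in FCN3 virus libraries, against 1377 and 559.8, and 982.4 and 408.3, for BLOC1S1. The sum of both genes had a log2 fold change of -0.55 (edgeR adjusted p = 0.127), and of -0.56 with the block (adjusted p = 6.16e-08). ITGA7 overlaps BLOC1S1 on the other strand and had counts of 21 or 22 in each library. The mean length of the BLOC1S1 transcripts, which moves with the mix of its 4 RefSeq isoforms, was 615 and 609 bases in EV and 603 and 602 bases in FCN3 virus libraries.

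The other subunits of BLOC-1 mostly lay on the other side of 0. Of 7 tested, 6 had a positive log2 fold change and the median was 0.18, whereas 48.1% of all tested genes were below 0. BLOC1S2 was at 65.0 and 54.6 CPM in EV and 87.4 and 77.8 CPM in FCN3 virus libraries (log2 fold change 0.46, SE 0.12, edgeR adjusted p = 0.0883), and BLOC1S3 was higher by 0.55 (adjusted p = 0.121). SNAPIN was at 35.7 and 37.8 CPM in EV and 29.4 and 25.8 CPM in FCN3 virus libraries (-0.41, adjusted p = 0.103). Neither edgeR nor DESeq2 called any of the 7 without the block. In the edgeR fit with it BLOC1S2, BLOC1S3 and BLOC1S6 rose and SNAPIN fell, against 19.1% of all tested genes called higher and 17.1% lower.

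**Figure D3:**
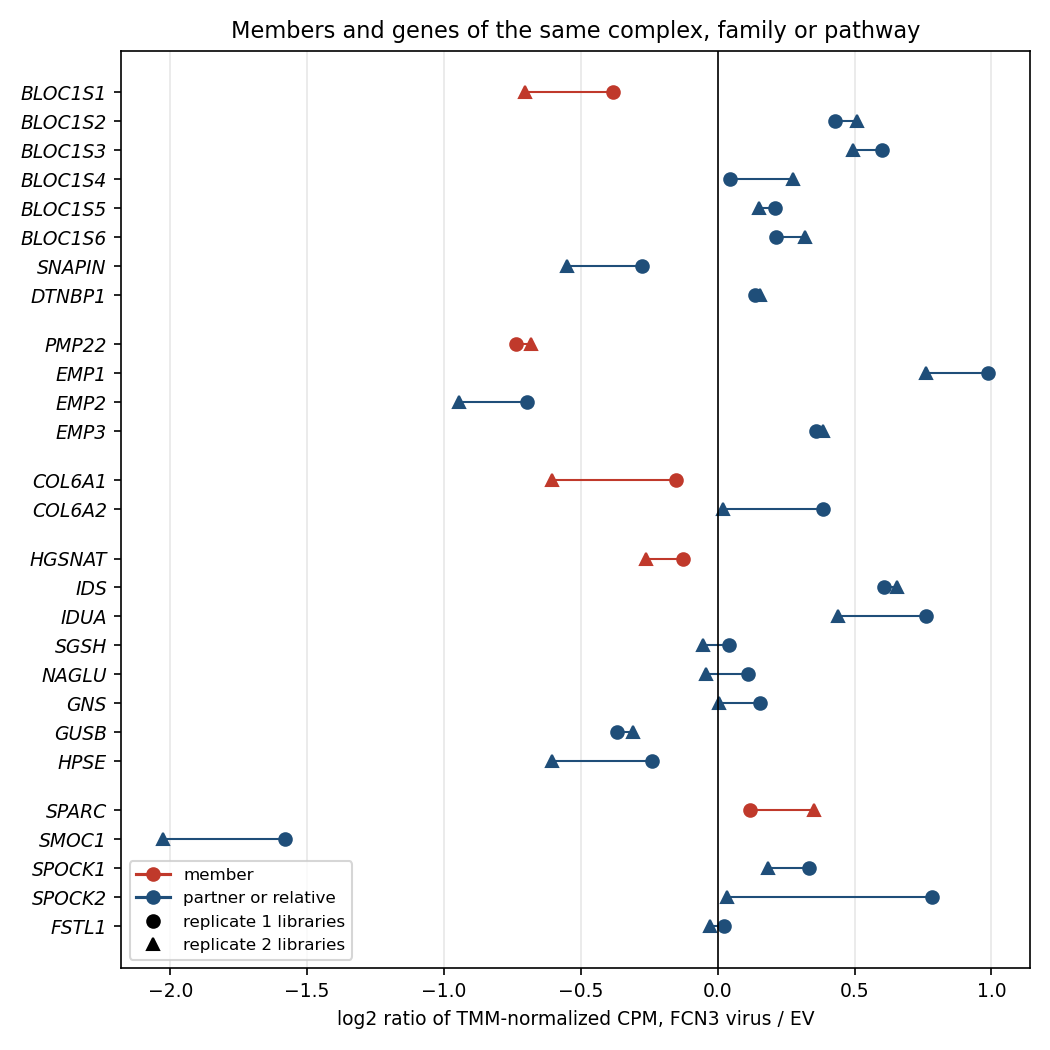
Log2 ratio of TMM-normalized CPM, FCN3 virus over EV, for members (red) and genes of the same complex, family or pathway (blue), with a circle for the libraries numbered 1, a triangle for those numbered 2 and a line between them. BLOC1S1 lies between -0.71 and -0.38 while 6 of the 7 other BLOC-1 genes lie above 0, and COL6A1 and COL6A2 lie on opposite sides of 0.

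COL6A1 encodes the alpha 1 chain of collagen VI, which is assembled in the ER with the chains of COL6A2 and COL6A3 before secretion (chromosome 21, GRCh37, 47401684 to 47424964, plus strand). It was at 56.4 and 66.8 CPM in EV replicates 1 and 2 and at 50.7 and 43.9 CPM in FCN3 virus replicates 1 and 2. The groups did not overlap. The difference was small between the libraries numbered 1 (-0.15 on the log2 scale) and larger between those numbered 2 (-0.60). The log2 fold change was -0.37 (SE 0.13, 95% interval -0.70 to -0.05, edgeR adjusted p = 0.155), and with the block -0.37 (SE 0.07, adjusted p = 2.85e-05). Its partner COL6A2 was at 35.8 and 40.6 CPM in EV and 46.7 and 41.1 CPM in FCN3 virus libraries, without overlap. The difference was 0.38 on the log2 scale between the libraries numbered 1 and 0.02 between those numbered 2. The log2 fold change of COL6A2 was 0.21 (SE 0.12, edgeR adjusted p = 0.351, and 0.0151 with the block). COL6A3 was at or below 0.11 TPM. The fibroblast markers were also lower by their fitted values in 4 of 4 tested, against 48.1% of tested genes. In THY1 alone the groups did not overlap, at 13.3 and 14.1 CPM in EV and 8.82 and 7.84 CPM in FCN3 virus libraries (-0.70, edgeR adjusted p = 0.0545). COL1A1 (-0.02, SE 0.61), COL3A1 (-0.44, SE 0.95) and PDGFRA (-0.46, SE 0.53) overlapped between groups. Whether these differences and that of COL6A1 are related was not tested.

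SPARC, a secreted protein that binds collagen and shapes the matrix, lies on chromosome 5 (GRCh37, 151040657 to 151066536, minus strand). It was at 12.4 CPM in EV replicate 1 and 29.3 CPM in EV replicate 2, and at 13.4 CPM in FCN3 virus replicate 1 and 37.5 CPM in FCN3 virus replicate 2. The high libraries were those numbered 2 in both groups, and the groups overlapped. Between FCN3 virus and EV the log2 fold change was 0.30 (SE 0.60, 95% interval -1.19 to 1.80, edgeR adjusted p = 0.801), and leaving out 1 library turned its sign in 2 of 4 cases: -0.23 without EV replicate 1 and -0.61 without FCN3 virus replicate 2. With the block it was 0.24 (SE 0.09, adjusted p = 0.0205). Between replicate 2 and replicate 1 it was 1.37 (SE 0.09, adjusted p = 3.83e-18), being 1.24 in EV and 1.48 in FCN3 virus libraries. Of the fibroblast markers, COL1A1 had the same order, at 3.39 and 8.12 TPM in EV and 2.70 and 7.87 TPM in FCN3 virus replicates 1 and 2. COL3A1 (at or below 0.41 TPM) and the epithelial marker CDH1 also had it. THY1 and PDGFRA did not, since replicate 2 was the lower one of the FCN3 virus libraries in THY1 and of the EV libraries in PDGFRA. Of all tested genes, 22.2% differed by replicate number in either direction.

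Among the relatives of SPARC, SMOC1 was the one gene of all 29 tested partners and relatives of the members that edgeR called without the block, where DESeq2 called 6 (SMOC1, SCARA5 and PDGFD lower, and EMP1, IDS and PDGFB higher) and limma-voom 0. This secreted calcium-binding protein was at 17.4 and 19.5 CPM in EV and 5.81 and 4.78 CPM in FCN3 virus libraries, and it fell by 1.77 on the log2 scale (SE 0.17, edgeR adjusted p = 0.00905), a call that was lost without FCN3 virus replicate 1 or 2. FSTL1 was between 78.2 and 109 TPM in the 4 libraries, and SPOCK1 had a log2 fold change of 0.26 (adjusted p = 0.322). Over all 29, 19 were higher and 10 lower by their fitted values, with a median of 0.18. With the block edgeR called 11 higher and 6 lower, or 17 of 29, against 19.1% of all tested genes called higher and 17.1% lower.

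PDGFRB, a receptor tyrosine kinase for platelet-derived growth factors that marks fibroblasts and pericytes, was hardly detected (chromosome 5, GRCh37, 149493402 to 149535435, minus strand). Its counts were 5 and 4 in EV replicates 1 and 2 and 11 and 12 in FCN3 virus replicates 1 and 2. These are 0.137 CPM (95% exact Poisson interval 0.0445 to 0.320) and 0.239 CPM (0.0651 to 0.612) in EV, and 0.324 CPM (0.162 to 0.580) and 0.603 CPM (0.312 to 1.05) in FCN3 virus libraries. The FCN3 virus libraries were the higher ones, on the other side from most members. Summed per group, 23 counts stood against 9, a depth-corrected ratio of 2.53 (1.13 to 6.20), an interval that covers counting error only and no spread between libraries. Without the filter edgeR gave a log2 fold change of 1.32 (adjusted p = 0.336), which was not called. Of the ligands, PDGFA (16.5 and 16.4 CPM in EV, 23.9 and 27.4 CPM in FCN3 virus libraries) and PDGFB (0.99 on the log2 scale) had higher values and PDGFD lower ones (-0.58), with adjusted p between 0.042 and 0.0556. PDGFC had a log2 fold change of 1.19 (adjusted p = 0.147). Without the block edgeR called none of the 4, and DESeq2 called PDGFB higher (adjusted p = 0.0039) and PDGFD lower (adjusted p = 0.00599). In the edgeR fit with the block, PDGFA, PDGFB and PDGFC rose and PDGFD fell, against 19.1% of all tested genes called higher and 17.1% lower.

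HGSNAT and SCARA3 both lie on chromosome 8 and had the smallest differences among the 5 lower members. HGSNAT encodes a lysosomal membrane enzyme that acetylates heparan sulfate during its breakdown (GRCh37, 42995607 to 43057998, plus strand). It was at 58.0 and 66.5 CPM in EV replicates 1 and 2 and at 53.1 and 55.5 CPM in FCN3 virus replicates 1 and 2. All 4 values lay within a narrow range, and the same-numbered differences were -0.13 and -0.26 on the log2 scale. The log2 fold change was -0.20 (SE 0.10, 95% interval -0.46 to 0.07, edgeR adjusted p = 0.319), and with the block -0.19 (SE 0.06, adjusted p = 0.0111), short of the threshold in both.

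The other enzymes of heparan sulfate breakdown, all lysosomal hydrolases, did not move as a group, with 4 of 7 higher, 3 of 7 lower and a median of 0.037. IDS was at 274 and 235 CPM in EV and 418 and 370 CPM in FCN3 virus libraries (log2 fold change 0.63, SE 0.11, edgeR adjusted p = 0.0375). GUSB was at 30.2 and 31.5 CPM in EV and 23.4 and 25.4 CPM in FCN3 virus libraries (-0.34, adjusted p = 0.133). Of these, DESeq2 without the block called IDS (adjusted p = 0.000359). In the edgeR fit with the block IDS and IDUA rose and GUSB fell, against 19.1% of all tested genes called higher and 17.1% lower.

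SCARA3, a scavenger receptor-like membrane protein linked to protection from oxidative stress, lies at 27491385 to 27534293 on the plus strand. It was at 84.9 and 85.4 CPM in EV replicates 1 and 2 and at 74.8 and 71.3 CPM in FCN3 virus replicates 1 and 2. The replicates lay close together and the groups did not overlap, with same-numbered differences of -0.18 and -0.26. The log2 fold change was -0.22 (SE 0.08, 95% interval -0.43 to -0.01, edgeR adjusted p = 0.179), and 22.9% of tested genes had a lower value. With the block it was -0.22 (adjusted p = 0.00179), and SCARA3 fell in that fit. Among the other class A scavenger receptors, SCARA5 was tested, at 3.38 and 7.47 CPM in EV and 0.855 and 1.61 CPM in FCN3 virus libraries (-2.12, SE 0.54, adjusted p = 0.0827 in edgeR, 7.89e-12 with the block, and 0.00173 in DESeq2 without it). MSR1 was at 0 in the 4 libraries, and MARCO and COLEC12 were at or below 0.24 TPM.

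**Figure D4:**
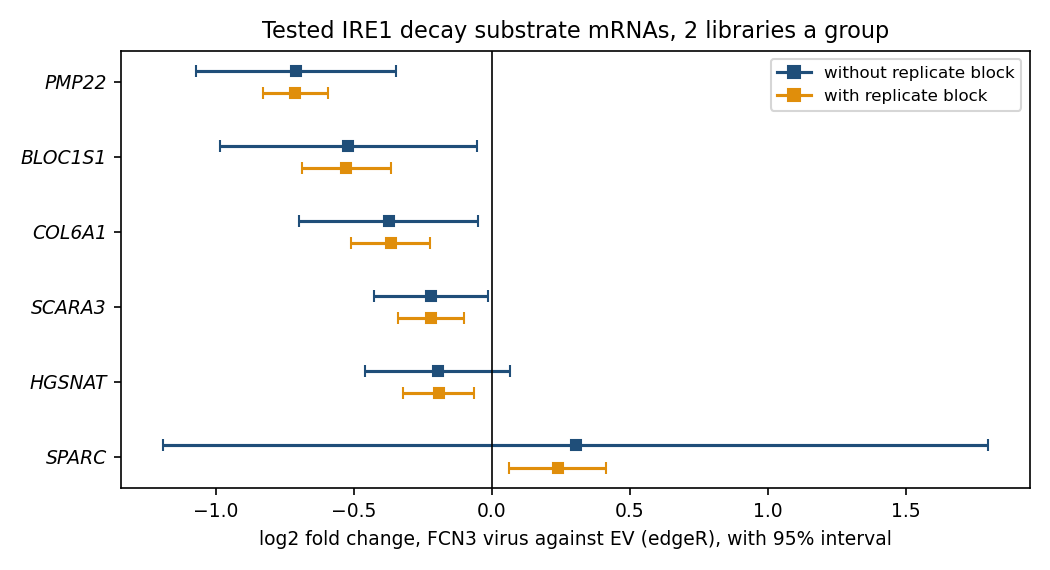
Log2 fold change of the 6 tested members (FCN3 virus against EV, 2 libraries a group) with its 95% interval from edgeR, without the replicate block (blue) and with it (orange). The point values change little, the intervals narrow with the block, and the interval of SPARC without the block runs from -1.19 to 1.80.

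The 2 kinds of difference, by virus and by replicate number, can be set side by side for each member. In PMP22, BLOC1S1 and SCARA3 both same-numbered differences between FCN3 virus and EV were larger in size than the replicate difference of the EV libraries. In BLOC1S1 the replicate difference of the FCN3 virus libraries (-0.50) was larger than the virus difference of the libraries numbered 1 (-0.38). COL6A1 differed between replicates by 0.24 in EV and -0.21 in FCN3 virus libraries, in opposite directions. Its EV replicate difference was larger in size than its virus difference of the libraries numbered 1 (-0.15). The same held for HGSNAT, with 0.20 between EV replicates and -0.13 between the libraries numbered 1. In SPARC the replicate differences were the larger in both groups.

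**Figure D5:**
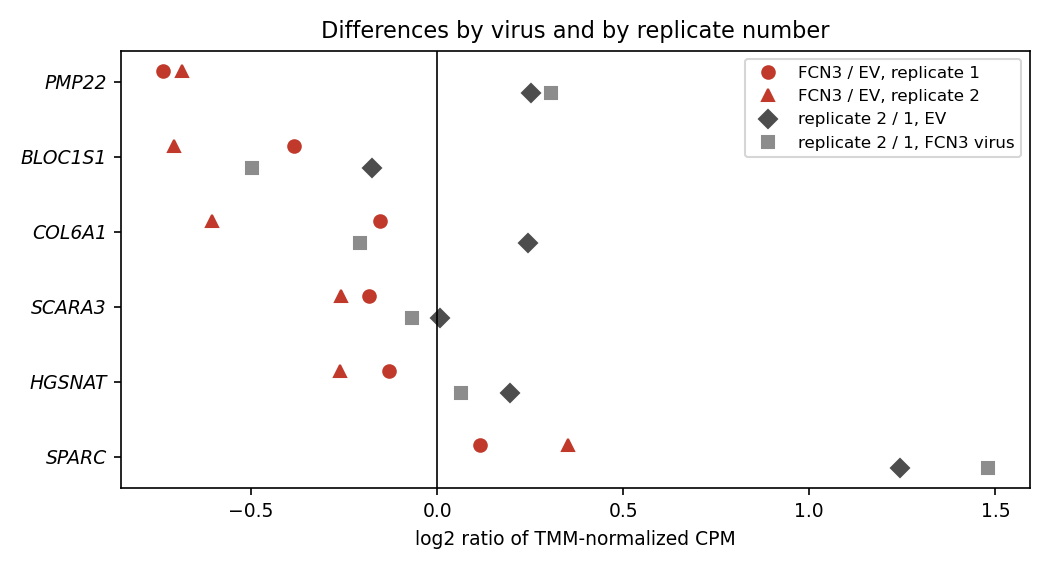
Log2 ratio of TMM-normalized CPM of the 6 tested members, FCN3 virus over EV within each replicate number (red circle for 1, red triangle for 2) and replicate 2 over replicate 1 within each group (dark diamond for EV, grey square for FCN3 virus). PMP22 has red points near -0.7 and grey points near 0.3, whereas the SPARC points for replicate number, 1.24 and 1.48, lie far to the right of its points for virus.

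The genes that act in the same pathway were described from lists written by hand. Of the 21 tested genes of the IRE1 machinery (the sensors, their binding partners, the tRNA ligase complex that rejoins XBP1 and the kinases downstream), 13 were higher and 8 lower by their fitted values, with a median of 0.14. The 5 that passed the threshold without the block all rose, against 0.738% of tested genes called higher. With the block edgeR called 8 higher and 1, TRAF2, lower, against 19.1% and 17.1% of tested genes. TRAF2 was at 75.3 and 89.8 CPM in EV and 52.1 and 59.5 CPM in FCN3 virus libraries. Its log2 fold change was -0.56 (edgeR adjusted p = 0.062, and 3.63e-11 with the block). DESeq2 without the block called 7 higher and TRAF2 lower (adjusted p = 0.0045). HSPA5, the ER chaperone that holds the sensors inactive, was at 751 and 747 CPM in EV and 7314 and 6371 CPM in FCN3 virus libraries (log2 fold change 3.19, SE 0.12, edgeR adjusted p = 0.000989). DNAJB9, a co-chaperone that recruits it to IRE1, rose by 3.15 on the log2 scale, XBP1 by 1.55 (SE 0.10, adjusted p = 0.00296) and PDIA6 by 1.54. XBP1 was at 36.7 and 41.3 CPM in EV and 116 and 113 CPM in FCN3 virus libraries, a level that counts spliced and unspliced forms together. ERN1 itself was at 2.90 and 2.38 TPM in EV and 6.13 and 6.35 TPM in FCN3 virus libraries, without overlap. Its log2 fold change was 1.32 (SE 0.16, adjusted p = 0.0157, and 4.6e-13 with the block), short of the threshold without the block in edgeR but past it in DESeq2 (adjusted p = 1.73e-05). ERN2 was at 0 in the 4 libraries. The 6 genes of the ligase complex, named after their values were seen, lay between -0.20 and 0.33, and edgeR called none with or without the block. RTCB, its catalytic subunit, is listed as C22orf28 and had a log2 fold change of -0.04 (adjusted p = 0.851).

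All 14 tested genes of a list of XBP1 targets had a positive log2 fold change, with a median of 1.36, whereas 48.1% of all tested genes were below 0. Without the block edgeR called 7 of the 14 higher, against 0.738% of all tested genes. The 4 largest were DNAJB9 (3.15, a gene that is also in the IRE1 list), PDIA4 (2.57), DNAJC3 (2.56) and DNAJB11 (2.08). These encode ER folding enzymes and co-chaperones, and many respond to other sensors of the ER as well. With the block 13 of 14 were called higher, against 19.1% of all tested genes. 

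Of the 32 genes of mRNA decay (exosome, Ski complex, decapping, deadenylation and nonsense-mediated decay), 13 were higher and 19 lower by their fitted values, with a median of -0.042. edgeR called 0 at an FDR of 0.01, and so did DESeq2, limma-voom and limma on log2 TPM. At an unadjusted p under 0.05, 8 of the 32 passed, 6 of them lower, a share near the 25.1% of all tested genes. With the block edgeR called 5 higher and 8 lower, or 13 of 32, against 36.2% of all tested genes, so that neither count sets the list apart. The following were named after their values were seen. XRN1, the exonuclease that degrades downstream fragments, had a log2 fold change of 0.27 (edgeR adjusted p = 0.478, and 0.00283 with the block). PELO, which rescues ribosomes stalled on cut mRNAs, was at 41.9 CPM in both EV libraries and at 60.8 and 57.6 CPM in FCN3 virus libraries (0.50, SE 0.09, adjusted p = 0.0371). The exosome subunit EXOSC6 was at 31.7 and 28.9 CPM in EV and 21.4 and 14.8 CPM in FCN3 virus libraries (-0.73, SE 0.19, adjusted p = 0.0887, and 6.33e-10 with the block).

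Other transcripts that have been reported as IRE1 substrates in some cell types did not share 1 direction. Of 6 tested, 2 were higher and 4 lower by their fitted values, with a median of -0.25. At an unadjusted p under 0.05 in edgeR, 3 passed, 2 of them lower, against 25.1% of all tested genes. At an FDR of 0.01 edgeR called 0, and DESeq2 called the 2 that are described next. The 2 with the smallest adjusted p, named after their values were seen, lay on opposite sides. DGAT2, an enzyme of triglyceride synthesis, was at 7.63 and 7.23 CPM in EV and 1.59 and 2.56 CPM in FCN3 virus libraries (log2 fold change -1.91, SE 0.26, edgeR adjusted p = 0.0202). TNFRSF10B, the death receptor DR5, was at 286 and 268 CPM in EV and 473 and 459 CPM in FCN3 virus libraries (0.75, SE 0.08, adjusted p = 0.012). CD59 (-0.21) and TAPBP (-0.29) were lower in both FCN3 virus libraries. With the block edgeR called 4 of the 6 lower (DGAT2, CD59, TAPBP and CES1), against 17.1% of all tested genes. It called 1 higher (TNFRSF10B), against 19.1%.

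The stem-loops printed above can be set beside the values. Of the 6 tested members, the 3 with a stem of at least 4 pairs had log2 fold changes of -0.71 (PMP22), -0.52 (BLOC1S1) and -0.37 (COL6A1), and the 3 without had -0.22 (SCARA3), -0.20 (HGSNAT) and 0.30 (SPARC). This order was noticed after the values were seen, and it has no test. PDGFRB, which also has a stem of 6 pairs, was too low to be tested. Over all tested genes the same search showed no such order. The 11875 tested genes with a transcript sequence had a median log2 fold change of 0.0108, the 1723 with a stem of at least 4 pairs 0.0314, and the 287 with at least 6 pairs 0.0037. Both FCN3 virus libraries were below both EV libraries in 27.1%, 26.1% and 27.2% of these genes.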

How the data were processed

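The authors prepared stranded mRNA libraries, aligned paired reads to hg19 with STAR 2.6.1d and estimated abundance with RSEM on RefSeq transcripts. The strand setting is not given in the sources used here, so values of genes that overlap on opposite strands are uncertain. The authors deposited expected counts per gene, estimated counts that are not normalized, and TPM, scaled for length and depth. The deposited FPKM values were not used. Groups and replicate numbers came from the sample labels.

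Expected counts were rounded and compared in R 4.3.3 with edgeR 4.0.16 (TMM, filterByExpr, quasi-likelihood test, two-sided, Benjamini-Hochberg adjustment over 14099 genes, threshold 0.01), without covariates. Standard errors were derived from the F statistic and the size of the log2 fold change. Alternatives were DESeq2 1.42.0, limma 3.58.1 (voom, and log2 TPM with pseudocounts of 1 and 0.1), other scaling, filters, rounding and lengths, an FDR of 0.05, the replicate number as a block and each library left out. DESeq2 with the block and the sum of BLOC1S1 and BLOC1S1-RDH5 were added after seeing the data. The fits were tested on simulated data. Floors and Poisson intervals cover counting error only, and edgeR intervals include the spread between libraries, estimated in part from other genes. With the block this estimate rests mostly on other genes. COL6A1 had same-numbered differences of -0.15 and -0.60, yet an SE of 0.07 with the block. The p-values with the block thus do not measure how well the same-numbered differences of a single gene agree.

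The members and gene lists were chosen with earlier results of these data known. The rule named each member, its partners, the called genes of each list (at most 4), ERN1, XBP1 and FCN3. Not every partner the rule allows is given with values. Sequences and locations came from GENCODE on GRCh37.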

Additional observations from a re-analysis of the deposited data

How the results depend on the processing

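Across the settings tried, the log2 fold changes of PMP22, BLOC1S1, COL6A1, SCARA3 and HGSNAT stayed below 0. That of SPARC reversed to -0.23 without EV replicate 1 and to -0.61 without FCN3 virus replicate 2. With 1 library left out, the range was -0.80 to -0.30 for BLOC1S1, -0.87 to -0.56 for PMP22, -0.49 to -0.26 for COL6A1, -0.26 to -0.19 for SCARA3, -0.28 to -0.10 for HGSNAT, -0.61 to 1.00 for SPARC and 0.84 to 1.79 for PDGFRB. In these fits a lone library is assumed to vary like those of the other group.

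The calls depended most on the replicate block. Same-numbered libraries deviated together from their group means (r = 0.80 over 8268 genes, which are not independent), and 3132 of 14099 genes differed by replicate number at an FDR of 0.01, but with 2 pairs and no label for what a number marks, the libraries share only a number. With the block edgeR called 5103 genes (2690 higher) in place of 136 (104 higher), 4 members in place of 0, 9 genes of the IRE1 list in place of 5, 13 XBP1 targets in place of 7, 13 decay genes in place of 0, 17 partners in place of 1 and 5 other reported targets in place of 0. PMP22 (-0.71), BLOC1S1 (-0.53), COL6A1 (-0.37) and SCARA3 (-0.22) passed with it.

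DESeq2 called 1046 genes (588 higher), 1 member (PMP22, -0.72), 8, 12, 6 and 2 genes of the IRE1, XBP1, partner and other-target lists, and with the block 2209 genes, 2 members (PMP22, -0.72, and BLOC1S1, -0.55), and 8, 13, 6, 11 and 3 genes of the IRE1, XBP1, decay, partner and other-target lists. At an FDR of 0.05 edgeR called 1014 genes, 1 member, 12 XBP1 targets, 1 decay gene, 5 partners and 2 other targets. limma-voom and limma on log2 TPM with either pseudocount called 0 partners. With BLOC1S1 and its read-through gene summed, the block called 4 members, with BLOC1S1 at -0.56.

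Without 1 library each, between 92 and 267 genes were called (267 without EV replicate 2), 0 members, 4 to 5 genes of the IRE1 list, 7 to 9 XBP1 targets, 0 to 1 partners (0 without either FCN3 virus library), and 0 decay genes and 0 other targets. The causes of these shifts were not tested. With 2 libraries a group, intervals are wide, and PDGFRB lies too near the floor to be compared.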
